A study of Caenorhabditis elegans with 3 samples.

Results

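The regions described here were 649 autosomal stretches of the Caenorhabditis elegans genome whose summit, the point of highest signal, fell inside an exon of a protein-coding gene. They were chosen by the signal value that the authors deposited with each region of a combined candidate list of 28443 regions. Mitochondrial regions were dropped and the 2500 strongest of the remaining 28426 were kept. Of those, 386 were on the X chromosome and 2114 on autosomes. Set aside next were 274 summits that had a gene for a tRNA, a snoRNA or an snRNA closer than or at 200 bp, and 481 that lay from 0 to 1000 bp upstream of the 5′ end of a protein-coding gene. The rest comprised 649 exonic, 409 intronic and 301 intergenic summits. Because signal chose the regions, their signal values are given as a description only.

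The study mapped the chromatin association of Y5F2A.4, a gene product annotated with a C2H2 zinc finger, by chromatin immunoprecipitation followed by sequencing with an antibody against GFP. All material came from one group. The strain, OP682, carries the mutation unc-119(tm4063) and the transgene wgIs682, which holds Y5F2A.4 with TY1, EGFP and 3xFLAG tags at its C-terminus beside unc-119(+), the wild-type copy that rescues the mutation. The tagged protein is thus made from a transgene in addition to any made from the native gene. Worms of both sexes were pooled, synchronised by starvation as L1 larvae after bleaching, and collected whole as L4 larvae at 48 hours, so no cell type is resolved. Sonication gave fragments in a range of 200 to 800 bp. There were 2 biological replicates: replicate 1 had 2 technical libraries joined in 1 alignment, and replicate 2 had 1 library. The group has no untagged or untreated counterpart among the samples, and the control reads were not analysed here, nor were any read counts, so depth is unknown and no test across groups was possible.

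C2H2 zinc fingers are small protein folds held by a zinc ion, and arrays of them commonly bind DNA in a sequence-dependent way. Transcription factors are most often mapped to promoters and enhancers, whereas exons carry the protein code and the untranslated regions (UTRs) that flank it in the mRNA. Exons differ from introns and intergenic DNA in base composition in this species, coding exons being the richer in G and C.

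The 30 bases round the summits of 6 of the 8 strongest coding regions are shown first, as examples of the sequence under high signals. R12E2.13 and suro-1, which rank among these 8, are not shown. The bases are from the RefSeq genome WBcel235 (the ce11 assembly), read 5′ to 3′ on the strand of the host gene, with the summit base in a capital. The positions are chrIII:835968-835997 on the minus strand for dos-3, chrII:14155827-14155856 on the plus strand for xrn-2, chrIV:3336768-3336797 on the minus strand for F42A6.6, chrIII:1419975-1420004 on the minus strand for lelo-2, chrIII:11921876-11921905 on the plus strand for Y56A3A.22 and chrIII:8686003-8686032 on the plus strand for anmt-1.
dos-3: gatcatgctaacaaaTactattatcacccg
xrn-2: atccggcaaccgtggTgaatgccaatgaag
F42A6.6: gtctccgatacggagTtcacctgcgaaatt
lelo-2: ctctttcgaaaagcaCtgaagaaaccgcat
Y56A3A.22: aaaactcgcaaaaacGgcgaaaatcgagca
anmt-1: tgatgaaggtggtatTctgattcaaggtgg

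The strongest exonic region lay in the last coding exon of dos-3, annotated as a Delta and OSM-11-like protein, at chrIII:835812-836059. Its signal was 267 in the combined list, where it ranked 42 of all nuclear regions, and it ranked 16 in the list of replicate 1 and 46 in that of replicate 2. A second region of the same exon, with its summit 207 bp away, had a signal of 111.6 and ranked 482, with ranks of 1248 and 315 in the replicates. The next strongest was kin-14, a tyrosine kinase gene (chrI:7079290-7079671), with a signal of 223 and the summit in the 5′ UTR, 70 bp downstream of the gene's 5′ end. It ranked 29 in replicate 1 and 151 in replicate 2. Both regions therefore stood near the top of either replicate list.

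Coding regions made up most of the rest of the top 15. R12E2.13, a MIR domain gene, had a signal of 189. The value at xrn-2, the nuclear 5′-3′ exoribonuclease, was 186 (chrII:14155654-14156029). It was 184 at suro-1, a putative carboxypeptidase gene, and 182 at F42A6.6, which encodes a Hikeshi-like domain. These 4 regions ranked between 86 and 174 in replicate 1 and between 116 and 278 in replicate 2. The region in lelo-2, annotated with a major facilitator domain, reached 173, and that in Y56A3A.22 reached 169. Ranks were less even at anmt-1, the nicotinamide N-methyltransferase gene, whose signal of 165 went with rank 638 in replicate 1 and 76 in replicate 2. Y43F8B.3, a Kunitz inhibitor domain gene with a signal of 156, was uneven the other way, at rank 108 and 882. Y49A3A.3, annotated as a tRNA modification enzyme, had a signal of 149 and ranked 112 and 289. Several of these summits were near a gene end. Those of xrn-2, F42A6.6, Y56A3A.22 and Y49A3A.3 lay 74, 91, 199 and 73 bp downstream of the gene's 5′ end. At dos-3, R12E2.13, suro-1, lelo-2, anmt-1 and Y43F8B.3 the 3′ end of a gene on the opposite strand lay within 1000 bp.

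Over all 649 regions the signal ran from 65.1 to 267 with a median of 74.8, and 644 regions had the same deposited width of 376 bp. The values near the cut at rank 2500 were almost equal. Just inside were regions in the coding exons of fnip-2 (signal 65.1), sea-2 (65.1) and Y22D7AL.15 (65.1), and just outside were C32F10.8 (65.1), cpz-1 (65.04) and swsn-1 (64.99). Signal therefore did not separate the regions on either side of the cut.

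The summits were divided by the exon part that held them, with coding sequence taking precedence where transcripts differed. Coding sequence held 490 of 649 (75.5%, exact 95% interval 72.0 to 78.8), the 3′ UTR 108 (16.6%, 13.9 to 19.7) and the 5′ UTR 46 (7.09%, 5.24 to 9.34). The other 5 summits lay in exons of non-coding transcripts of protein-coding genes, among them tos-1 and fkh-7. Intervals here and below are exact Clopper-Pearson intervals for counting error, and regions are not independent of each other. Among the 7171 autosomal exonic candidates below rank 2500, selected by the same distance rules, the shares were 86.03%, 9.23% and 4.36%. Annotated exonic sequence open to the rule was 86.5% coding, 8.61% 3′ UTR and 4.51% 5′ UTR. The strong regions thus had fewer coding and more untranslated summits than either the weaker candidates or the annotated length, and the weaker candidates lay near the annotated shares. The difference was not tested. For the 5′ UTR it depended on the promoter rule. With 200 bp downstream of 5′ ends also set aside, the 5′ UTR share was 3.68% (2.26 to 5.63). With windows upstream of every transcript's 5′ end it was 4.74% (3.20 to 6.74). The shares set beside these values are those of the main rule.

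Per megabase of annotated sequence there were 58.6 strong summits in 3′ UTRs, 47.6 in 5′ UTRs and 26.5 in coding sequence. Introns held 15.8 and intergenic DNA 15.6 per megabase under the same rule. By chromosome, the 649 regions were spread as 129 on I, 127 on II, 136 on III, 142 on IV and 115 on V, from 20.6 per megabase of exonic sequence on V to 37.6 on III.

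**Figure D1:**
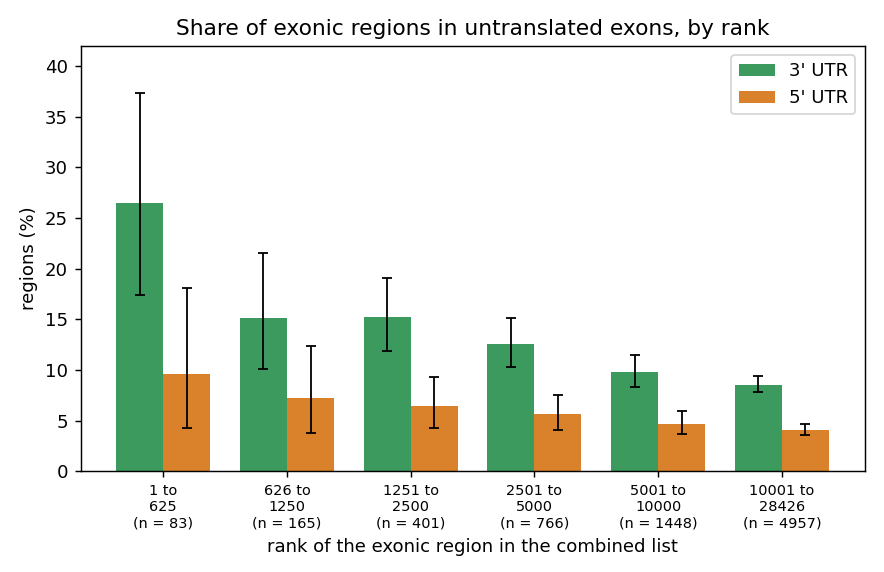
Share of autosomal exonic regions with the summit in a 3′ UTR (green) or 5′ UTR (orange), in percent, by rank of the region in the combined list. Bars are shares with exact 95% Clopper-Pearson intervals, and n is the number of exonic regions in each bin. The 3′ UTR share was 26.5% in the strongest bin and 8.55% in the weakest.

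The share in 3′ UTRs fell along the ranking. It was 26.5% (17.4 to 37.3) of the 83 exonic regions in the strongest bin, 15.2% of 165 and 15.2% of 401 in the next bins, and then 12.5%, 9.81% and 8.55% of the regions below rank 2500. The 5′ UTR share went from 9.64% to 4.08% over the same bins. For both UTR shares the intervals of neighbouring bins overlap. The median signal was 77.5 in 3′ UTRs, 77.2 in 5′ UTRs and 74.1 in coding sequence.

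The 5 strongest 3′ UTR regions were in rib-2, zig-11, rpl-3, T05F1.2 and T19A5.3. The gene rib-2 encodes an exostosin-like enzyme of heparan sulfate synthesis. Its signal was 170 (chrIII:10746354-10746729), with ranks of 85 and 317 in replicates 1 and 2, and the summit lay 133 bp before the gene's 3′ end. That of zig-11, an immunoglobulin-domain gene, was 166 (chrV:1875521-1875896) with ranks of 110 and 360. At rpl-3, which encodes a protein of the large ribosomal subunit, the signal was 142 with ranks of 208 and 221. T05F1.2 had 141 with ranks of 281 and 382, and T19A5.3 had 139 with ranks of 347 and 237. In all of these the 3′ end of a gene on the opposite strand lay within 1000 bp, the convergent partners being ran-1, cct-7, tir-1, rps-19 and unc-23. Further 3′ UTR regions that were thresholded lay in cpg-1, an eggshell chondroitin proteoglycan gene (138), and in lin-29 (137), a zinc finger regulator of the larval-to-adult switch.

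The 5 strongest 5′ UTR regions were in kin-14, C34C12.2, T28F4.5, drap-1 and tent-5, all of them thresholded. C34C12.2, a fibronectin type III domain gene at chrIII:3456224-3456599, had a signal of 148 and ranked 369 and 200 in the replicates. T28F4.5 had 129 with ranks of 377 and 311. The signal at drap-1, which encodes a histone-fold protein, was 126 with ranks of 442 and 277. At tent-5, a polynucleotide adenylyltransferase gene, it was 111 with ranks of 1225 and 450.

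The setting aside of promoters covered only the upstream side of gene 5′ ends. Of the 649 summits, 106 (16.3%) lay in the first 200 bp of a protein-coding gene, and 37 (5.70%) lay from 0 to 1000 bp upstream of the 5′ end of another annotated transcript. The name "away from promoters" therefore holds for gene-level upstream windows only. In 5′ UTRs, 26 of 46 summits were within 200 bp downstream of a gene 5′ end (56.5%), against 51.8% of 313 weaker 5′ UTR candidates. In coding sequence, 80 of 490 were (16.3%), against 8.25% of 6169 weaker coding candidates. A non-coding gene of another kind lay within 200 bp of 12 summits.

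**Figure D2:**
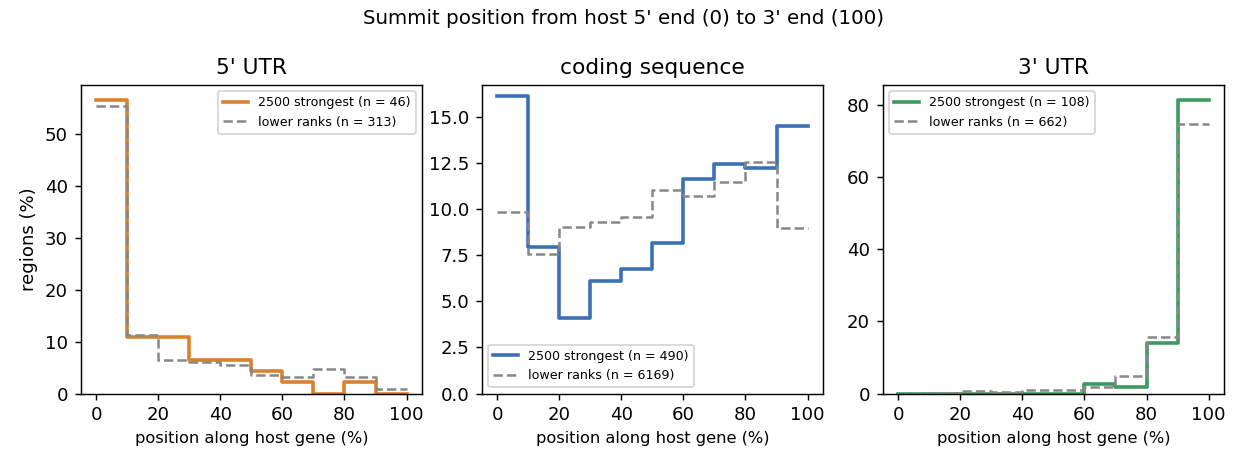
Position of the summit along the host gene, from the 5′ end (0%) to the 3′ end (100%), in bins of 10% of gene length, for 5′ UTR, coding and 3′ UTR summits. Coloured lines are the regions among the 2500 strongest and dashed grey lines the exonic candidates of lower rank, each as percent of the n in the legend. Strong coding summits were more often in the outermost bins and less often in the middle than weaker ones.

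Along the host gene, coding summits of the strong set gathered toward both ends. When genes were cut into 3 parts of equal length, 217 of 490 coding summits lay in the 3′ part (44.3%), 120 in the middle (24.5%) and 153 in the 5′ part (31.2%). The weaker coding candidates had 36.7%, 34% and 29.3%. Within 200 bp of the host's 3′ end were 48 coding summits (9.80%), against 4.93% of the weaker ones. The host's last exon held 147 of the 490.

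The 3′ UTR summits had a median distance of 176 bp to the gene's 3′ end. For 74 of the 108 (68.5%) the 3′ end of a gene on the opposite strand lay within 1000 bp, against 54.4% of 662 weaker 3′ UTR candidates. For coding summits the corresponding shares were 32.2% and 16.7%. The pair of hmg-12 and lin-29 shows the arrangement: lin-29 carried a 3′ UTR summit at 11917829 on chromosome II, and hmg-12, a high mobility group gene on the other strand, carried coding summits at 11917004 and 11917203. The first hmg-12 summit had a signal of 136 and ranks of 544 and 201.

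Base composition differed between the summit and its surroundings. In the 101 bp centred on the summit the median G+C content was 45.5% (exact 95% interval of the median 43.6 to 45.5), against 38.6% (37.6 to 39.1) in windows of the same size 300 bp to either side. G+C was above the flanks for 476 of the 649 regions (73.3%), near the 70.6% of weaker exonic candidates and the 72.4% of intergenic summits, and 66.5% of intronic summits were above theirs. The median excess over the flanks was 5.94 percentage points for exonic, 7.92 for intergenic and 4.46 for intronic summits. Coding summits had a median of 46.5%, 5′ UTR summits 41.1% and 3′ UTR summits 37.6%. Intronic and intergenic summits of the same rank range had medians of 42.6% and 44.6%.

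**Figure D3:**
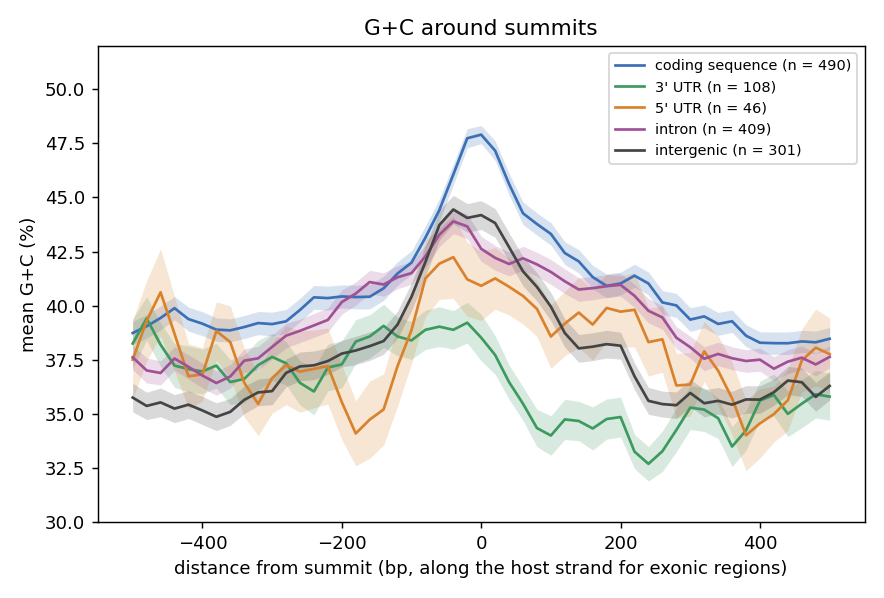
Mean G+C in percent in 51-bp windows against distance from the summit in bp, for coding, 3′ UTR, 5′ UTR, intronic and intergenic summits among the 2500 strongest. Lines are means and bands 1 standard error over regions. Coding summits stood highest at the centre, and mean G+C at the summit was above that 300 bp to either side in every class. In 3′ UTRs it was 38.5% at the summit, 37.6% at 300 bp upstream and 35.3% at 300 bp downstream.

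Measured against its own exon, the contrast of a coding summit was smaller. The summit window exceeded the G+C of the exon holding it by a median of 0.96 percentage points, and 282 of 490 windows were above their exon (57.6%). The weaker coding candidates had a summit median of 43.6% and exceeded their flanks by 5.94 points, against 6.93 points for the strong ones. In 3′ UTRs the strong and weak sets lay on opposite sides of their flanks. Strong 3′ UTR summits were 1.73 points above theirs at the median (interval 0 to 3.96), and for weaker ones the median difference was -2.97 points (-3.96 to -1.98). The median G+C was 37.6% against 33.7%. Neither difference was tested, nor was the part of G+C content in the recovery and sequencing of fragments.

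The 6 words chosen with earlier results of these data known were counted on both strands in the 101-bp windows. The word GAGAGA was in 54 of the 649 windows (8.32%), against 6.07% of the weaker exonic candidates, 14.9% of intronic and 18.3% of intergenic windows. It was in 10 of the 46 5′ UTR windows (21.7%) and in 32 of the 490 coding ones (6.53%). The word CTGCGT was in 2.93%, against 2.22% of the weaker exonic candidates, 8.80% of intronic and 11.6% of intergenic windows. It was in 4 of the 46 5′ UTR windows (8.70%) and in 2.45% of coding ones. GGTTCG was in 2.62%, GCGCGC in 0.308% and AATTTT in 17.9%. Those shares were near the 2.18%, 0.349% and 20.3% of the weaker exonic candidates. A run of T, TTTTTT, was in 14.2%, near the 17.4% of the weaker exonic candidates. It was in 35.6% of the flanking windows, 33.0% of intronic and 27.9% of intergenic ones. Coding windows thus held GAGAGA and CTGCGT less often than the intronic and intergenic windows of the same ranks, whereas 5′ UTR windows held GAGAGA at least as often as either and CTGCGT about as often as intronic ones. None of this was tested. A word in a window is a description and not a binding site.

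Reproducibility was read from ranks, since signal values of separately made lists have no common scale. Only 81 of the 649 regions (12.5%, 10.04 to 15.3) were identical to one in the authors' thresholded list, which keeps regions by the irreproducible discovery rate, a measure of how consistently regions rank between lists. The same share was 24.8% of all 2500 strongest regions. It was 10.02% of intronic, 15.9% of intergenic and 28.5% of upstream summits, and 62.0% of those near small RNA genes. The 620 thresholded nuclear regions were exactly the 620 strongest of the combined list, with no region of higher rank left out. The thresholded share therefore repeats the ranking that chose the regions. The other 568 exonic regions were candidates that the authors' procedure did not retain. Of the thresholded 81, 49 were coding, 22 were in 3′ UTRs and 8 in 5′ UTRs.

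A candidate summit within 200 bp was listed by replicate 1 for 613 regions, by replicate 2 for 628 and by both for 592 (94.5%, 96.8% and 91.2%). Over all 2500 strongest regions these shares were 96.2%, 97.7% and 93.9%. The candidate lists hold background as well as peaks, and the combined list was made from the reads of both replicates, so a match alone does not show a peak. With the match limited to the strongest 2500 of each replicate, 163 of the 649 (25.1%, 21.8 to 28.6) matched in both, against 36.8% of all 2500. The share was 23.3% for coding, 32.4% for 3′ UTR and 26.1% for 5′ UTR summits. Conversely, 103 regions (15.9%, 13.1 to 18.9) were in the strongest 2500 of neither replicate, near the 13.8% of all 2500. The matched summits were displaced by a median of 25 bp in replicate 1 and 20 bp in replicate 2.

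**Figure D4:**
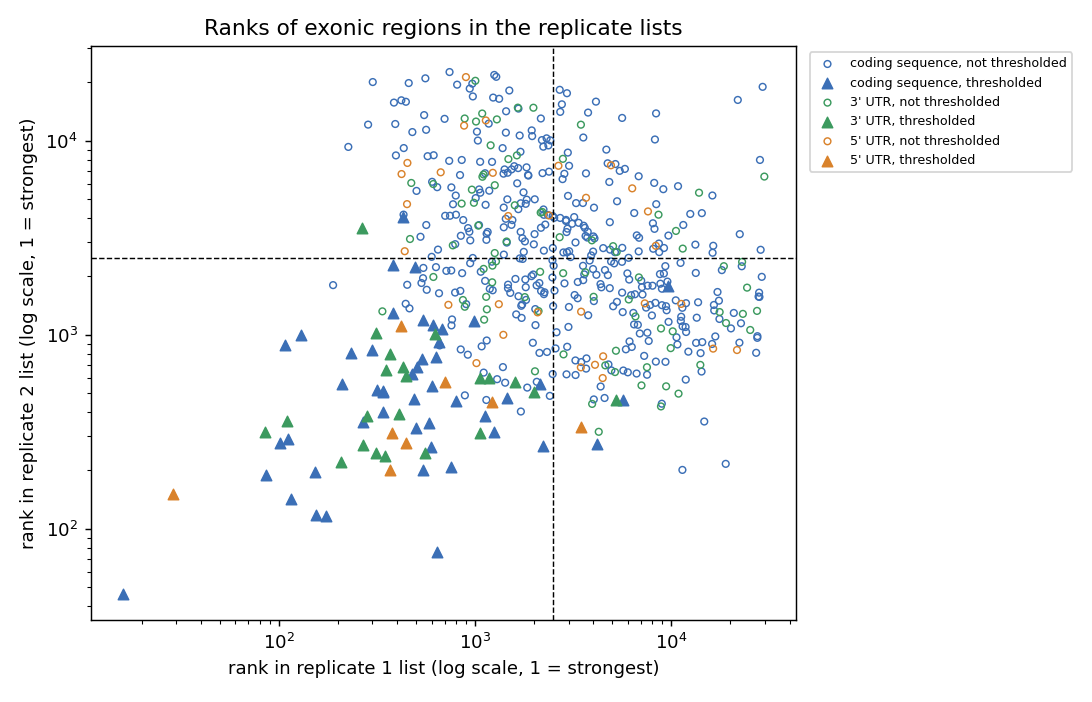
Rank of the matched candidate in the replicate 1 list (x) and in the replicate 2 list (y), both on log scales with 1 the strongest, for the coding and UTR regions listed by both replicates. Filled triangles are thresholded regions and open circles the others, coloured by exon part, and dashed lines mark rank 2500. Thresholded regions lay mostly at strong ranks in both lists, and the others spread toward 1 strong and 1 weak rank.

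Among the 592 regions listed by both replicates, Spearman's rho between the 2 ranks was -0.05. This is a description over regions that share their libraries and were chosen on the joint signal. The same figure was -0.03 for 376 intronic, 0.09 for 280 intergenic and 0.34 for 457 upstream summits, and 0.62 for 268 summits near small RNA genes. The 4 largest differences in rank all had the weaker rank in replicate 1, a direction that list length allows only there, since replicate 1 listed 30000 candidates and replicate 2 listed 23415. They were lec-11, a galectin gene (rank 28888 in replicate 1 and 1988 in replicate 2), Y22D7AL.15 (28110 and 1566), mtrr-1, the methionine synthase reductase gene (27446 and 983), and riok-1, a RIO kinase gene (27414 and 964).

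The replicate lists were also compared with each other, each cut at its own 2500 strongest nuclear regions and passed through the same distance rules, so that the combined list played no part. Replicate 1 gave 696 exonic summits, of which 174 (25%, 21.8 to 28.4) had a strong summit of replicate 2 within 200 bp. Replicate 2 gave 655, of which 177 (27.02%, 23.7 to 30.6) had one of replicate 1. Coding summits were shared at 22.1% and 23.8%, 3′ UTR summits at 33.9% and 35.6%, and 5′ UTR summits at 33.3% and 37.5% of 36 and 40. Intronic summits were shared at 24.9% and 24.2%, intergenic ones at 31.1% and 32.3%, upstream ones at 45.3% and 41.7%, and those near small RNA genes at 77.5% and 81.0%. About 3 in 4 strong exonic summits of either replicate were therefore not among the strong summits of the other, and the same held for intronic summits.

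The 649 summits lay in 609 genes, which is 3.55% of the 17138 autosomal protein-coding genes, and 6 summits had more than 1 host. Hosts had a median length of 3000 bp, against 1971 bp for all autosomal protein-coding genes and 3193 bp for the 4888 hosts of weaker exonic candidates. Of the 609 hosts, 329 also held a weaker candidate, against 4888 of all 17138 autosomal protein-coding genes. The part of gene length in this was not tested. The hosts were thus longer than the average gene, as were the hosts of weaker candidates.

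There were 42 genes with 2 or more regions. The largest number was 4, in mnk-1, which encodes a kinase acting on the translation machinery, with signals of 72.5 to 104.6 over 11043 bp. One of its summits lay in the 3′ UTR, 1 in coding sequence and 2 in 5′ UTR exons. There were 3 regions each in sea-2, an autosomal signal element of sex determination (65.1 to 91.2), and in the collagen gene col-129 (68.7 to 96.03). Genes with 2 regions included daf-16, the FOXO factor of insulin signalling, egl-4, the cGMP-dependent protein kinase, crh-1, the CREB homologue, and lin-42, the Period homologue. They also included prg-1, a Piwi protein, unc-22, the giant muscle protein twitchin, vit-6, a yolk protein, and icl-1 of the glyoxylate cycle. None of the regions in these genes, from daf-16 to icl-1, was thresholded. Their signals ran from 65.8 (unc-22) to 90.4 (daf-16). Some other genes with 2 regions, such as dos-3 and hmg-12, held thresholded ones. Of the 649 regions 20 overlapped another of the set, as in dos-3, rpn-7 and nhr-119, so such pairs are not separate sites.

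**Figure D5:**
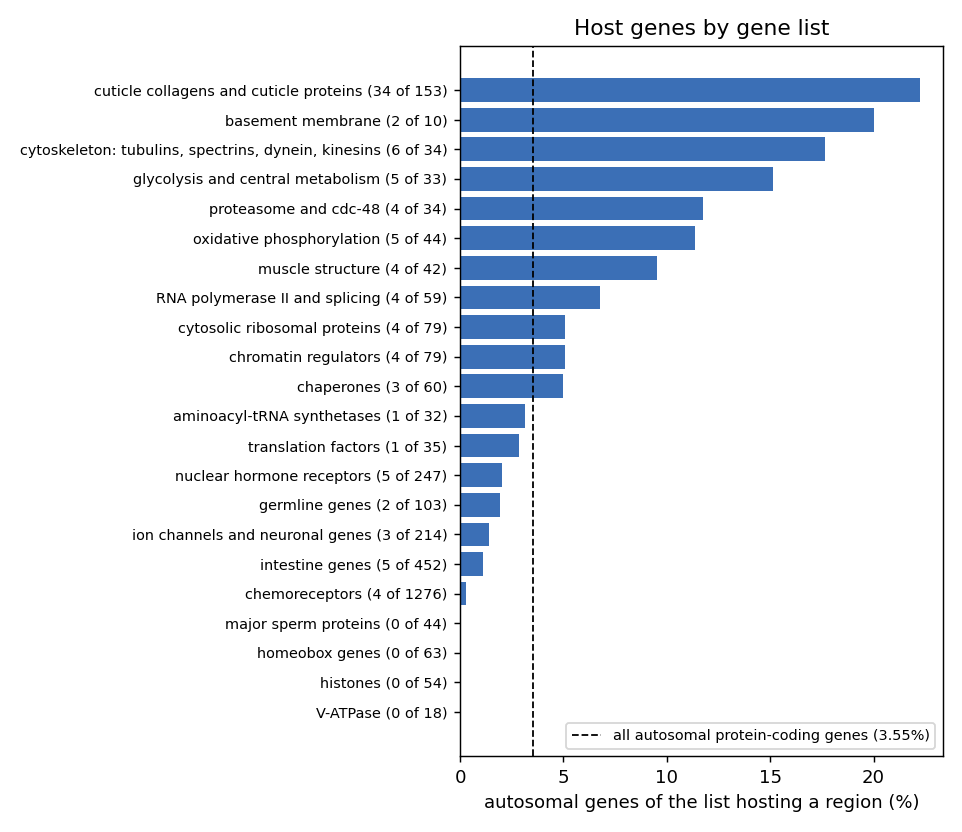
Percent of the autosomal genes of each list that hosted an exonic region, with hosts and list size in brackets, for lists with at least 5 genes. The dashed line marks the 3.55% of all autosomal protein-coding genes. Cuticle collagens and cuticle proteins had the highest share, 22.2%, and major sperm proteins, homeobox genes, histones and the V-ATPase had 0.

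Host genes were counted in 23 lists of gene families, complexes and tissue genes, defined by gene symbol, and the shares are to be read against the 3.55% of all genes. No list was tested. For lists of at least 5 genes above 3.55%, the share of all hosts is also set beside the share of annotated exonic length. Exonic length is also given for chemoreceptors and for the lists without a host. Lists formed by symbol can miss genes.

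Among lists with at least 5 genes the highest share was that of cuticle collagens and cuticle proteins, structural proteins that nematode epidermis secretes at each moult. Of 153 such autosomal genes, 34 were hosts (22.2%), with 36 regions. They were 5.58% of all hosts, against 1.58% of the hosts of weaker candidates and 0.703% of annotated exonic length. A weaker candidate was hosted by 77 of the 153 (50.3%), against 4888 of all 17138 autosomal protein-coding genes. Among the 34 hosts of strong regions 26 were col- genes, and the others were bli-6, dpy-4, dpy-10, dpy-17, rol-6, rol-8, sqt-1 and sqt-3, named for blister, dumpy, roller and squat body shapes of the mutants. The list was formed by symbol and leaves out rol-1, also annotated with a cuticle collagen domain, which had 2 regions (signals of 73.4 and 85.5), and ram-2, annotated as a collagen, which had 1 (81.1). Of the 36 summits 34 were coding, and 19 lay in the 3′ part of the gene. This family was chosen for closer description after the counts of the 23 lists had been seen.

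The collagen regions were of middling signal. The strongest were col-60 (118, ranks of 498 and 331 in replicates 1 and 2), col-101 (115, 534 and 747) and col-39 (108, 803 and 456), the only 3 that were thresholded. Next came sqt-3 with 96.5 and ranks of 1423 and 566. In col-129 the coding summits lay 222 bp apart, one matched by replicate 2 alone (rank 442) and the other by replicate 1 alone (rank 219). The share of exonic regions in this family was 3.61% of the 83 in the strongest rank bin, 6.67% of 165 and 5.49% of 401 in the next bins, and 2.09%, 2.14% and 1.11% in the bins below rank 2500.

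The median rank of the 36 regions was 1558.5 in replicate 1 and 3211 in replicate 2, against 2058 and 1933 for all 649 exonic regions. Within the strongest 2500 were 25 of the 36 in replicate 1 and 16 in replicate 2, against 52.9% and 56.4% of the 649. Whether the replicates differ for this family was not tested. Selected from replicate 1 alone, 39 of 696 exonic summits were in this family (5.60%, 4.01 to 7.58), and from replicate 2 alone 21 of 655 (3.21%, 2.00 to 4.86). The intervals overlap, and both exceeded the family's 0.703% of exonic length. Collagen genes share repeated coding sequence, so reads may align to more than 1 copy, and the part of this in the result was not tested.

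Collagen chains are built of short repeats that begin with glycine and are rich in proline, so their coding sequence is repetitive. A scan of all 2080 words of 6 bases, each counted with its reverse complement, was made after the regions had been chosen, and CCAGGA and AGGACC were kept from it because they were commoner in the strong windows than in weaker exonic ones. They were concentrated in collagen windows: 27 of 36 held CCAGGA (75%) and 22 held AGGACC (61.1%), against 7.18% and 3.10% of the 613 other exonic windows. Over all 649 windows CCAGGA was in 10.9% and AGGACC in 6.32%, against 6.35% and 2.78% of the weaker exonic candidates. The shares of the 613 other windows were near those of the weaker candidates. Weaker collagen windows were not counted separately, so the 75% cannot be set against collagen coding sequence at large. All 27 collagen windows with CCAGGA had it on the strand of the gene. In the following 30 bases round each summit, on the strand of the host gene in WBcel235 from RefSeq, capitals mark CCAGGA and AGGACC, which overlap where they run together. The positions are chrIV:325801-325830 on the minus strand for col-101, chrII:10705537-10705566 on the plus strand for col-39, chrIV:12109030-12109059 on the minus strand for col-129, chrII:8568195-8568224 on the minus strand for col-38 and chrII:8733434-8733463 on the plus strand for rol-6.
col-101: CCAGGACCatccggacagCCAGGAtccaac
col-39: acaagtcggtgccCCAGGAaacCCAGGAca
col-129: cagCCAGGACCagacggacacCCAGGAcaa
col-38: gagcaAGGACCacaAGGACCacagggacca
rol-6: aatggaggaaatcaaccaaagttcCCAGGA
The stretches of sqt-3 and col-124 hold neither word, and that of col-60, the strongest collagen region, is not shown. Collagen windows had a median G+C of 59.9% and an observed-to-expected CpG ratio of 0.392, against 0.932 for all exonic regions. Without this family the median G+C of the exonic regions was 44.6%.

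Several other lists also stood above 3.55% of their genes, on small counts. Cytoskeletal genes had 6 of 34 (17.6%), with klp-18, a kinesin of the meiotic spindle, thresholded at 110 and mec-12, an alpha-tubulin, at 85.9. They were 0.985% of hosts and 0.761% of exonic length. Genes of glycolysis and central metabolism had 5 of 33 (15.2%), led by mdh-1 (90.1) and pck-1 (89.8), which was 0.821% of hosts against 0.289% of length. The proteasome with cdc-48 had 4 of 34 (11.8%), led by cdc-48.1 (95.8), or 0.657% of hosts against 0.190% of length. Oxidative phosphorylation had 5 of 44 (11.4%), led by cox-5B (100.9, thresholded) and atp-2 (82.8), or 0.821% against 0.173%. Muscle structure had 4 of 42 (9.52%), led by unc-22 (84.1), but its 0.657% of hosts was below its 0.936% of exonic length. Weaker candidates were hosted by 76.2% of the list, against 4888 of all 17138 autosomal protein-coding genes. Basement membrane had 2 of 10 (20%), nid-1 (69.3) and the collagen IV gene emb-9 (65.2), or 0.328% against 0.260%. The only autosomal vitellogenin in the lists, vit-6, was a host.

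RNA polymerase II and splicing genes had 4 of 59 (6.78%), 3 of them in 3′ UTRs, with rsp-5, an SR splicing factor, at 104.6 (0.657% of hosts against 0.383% of length). Cytosolic ribosomal proteins had 4 of 79 (5.06%), with rps-16 (130) and rpl-3 (142) thresholded (0.657% against 0.182%). Chromatin regulators had 4 of 79 (5.06%), led by swsn-1 (74.1), with 0.657% of hosts against 0.865% of length. Chaperones had 3 of 60 (5.00%), with hsp-110 at 132 (0.493% against 0.360%). With counts this small, ribosomal proteins, chromatin regulators and chaperones cannot be placed above or below the background.

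The remaining lists were below 3.55% of their genes. Aminoacyl-tRNA synthetases had 1 of 32 (3.13%), translation factors 1 of 35 (2.86%), nuclear hormone receptors 5 of 247 (2.02%), germline genes 2 of 103 (1.94%), ion channels and neuronal genes 3 of 214 (1.402%) and intestine genes 5 of 452 (1.11%). The symbol pattern for translation factors counted ifg-1 (74.2) and missed eef-1A.1, elongation factor 1-alpha, which had a coding region with a signal of 79.1, so with counts this small that list cannot be placed above or below the background. The germline list counted only spe-5 and prg-1 and left out hosts such as hrde-1 (109.3, thresholded) and pos-1 (86.1). The neuronal list counted lgc-31, snt-4 and egl-21 and left out hosts such as mec-17 (91.8) and glt-6 (83.8). The shares of these lists therefore do not stand for germline or neuronal genes as a whole. Chemoreceptors, the receptors of sensory neurons and the largest family counted, had 4 of 1276 (0.313%), srt-47, srd-49, sri-28 and sri-21, although they hold 5.38% of exonic length. A weaker candidate was hosted by 11.7% of them, against 4888 of all 17138 autosomal protein-coding genes. Histones (54 genes, 0.0975% of exonic length), major sperm proteins (44, 0.0579%), homeobox genes (63, 0.358%) and V-ATPase subunits (18, 0.114%) had no host. Taken singly, lists this short cannot be placed above or below the background, and neither can the aminoacyl-tRNA synthetases with 1 host of 32.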

How the data were processed

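The authors deposited 4 region lists on ce11. Per the labels and the notes with the files, candidates (peaks with background) came from replicate 1, replicate 2 and both together, each against a control, and the thresholded list was derived from them with the irreproducible discovery rate. Its threshold, the aligner and the caller were not given in the sources used here. Deposited signal is a score with no stated unit. The deposited −log10 q was not used to rank. The deposited summit offset gave the summit. Replicate 1 and replicate 2 held 30000 and 23415 candidates.

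Exons and 5′ ends came from Ensembl release 115 and names from RefSeq (WBcel235). Exon class, rank matching (200 bp), G+C (101 bp), words and hosts were computed with Python 3.11.15, numpy 2.4.6, pandas 2.3.3 and scipy 1.17.1. Placement was checked at randomly drawn positions against a second way of computing it, without a difference. Gene-level 5′ ends were used.

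Regions, lists and words were chosen with earlier results of these data known. Named are hosts of the 15 strongest regions, the 5 strongest of each UTR, hosts of several regions, up to 4 per list, 4 discordant and 3 on each side of the cut. Other genes that the text names, such as rol-1, ram-2, eef-1A.1 and fkh-7, were chosen after their values were seen. Alternatives were the number of regions kept, the promoter window, matching distance, window size and each replicate alone.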

Additional observations from a re-analysis of the deposited data

How the results depend on the processing

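Keeping only the stronger of 2 equal parts of the 2500 regions gave 248 exonic ones, 71.77% coding, 32.66% thresholded and 56.85% in the strongest 2500 of both replicates. Keeping the strongest 5000 gave 1415, 78.94%, 5.724% and 11.8%, with 3.675% in cuticle genes. Setting aside windows upstream of every transcript's 5′ end left 4.739% in 5′ UTRs. Adding 200 bp downstream of 5′ ends left 3.683% in 5′ UTRs and 19.89% in 3′ UTRs. Matching within 50 bp lowered the share in both replicates to 14.33%, and windows reaching 100 bp to either side lowered the median G+C to 42.29%. The cause of these shifts was not tested, apart from what each setting leaves out. From 1 replicate's list alone, the 5′ UTR share ranged from 5.172% to 6.107% and the cuticle gene share from 3.206% to 5.603%. The settings for cuticle genes, and leaving them out, were chosen after seeing the data. No paired analysis was possible because there was 1 group. Depth is unknown, so a region missing from a list cannot be told to be absent or undetected.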
